A study of Mus musculus with 6 samples.

Results

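The genes described here encode the proteasome, the protease that degrades ubiquitin-tagged proteins. They were taken by name, as the genes whose platform symbol is Psm followed by a letter from a to g and then digits only. The array carried 84 probes for 48 such genes, of 45281 probes in all, and 41 of the 48 genes were tested among 11280 genes. Messenger RNA was measured on Illumina bead arrays in mouse cortical neurons on day 14 of culture. The neurons were prepared from C57BL/6J mice of genotype Dicerflox/flox, so every group carried the floxed Dicer alleles, and the labels give no age and no Cre. Attached neurons, seeded at 500000 per well, received either a control lentivirus (CTKD, 3 arrays) or a lentivirus that knocks down the microRNA miR-27b (miR-27bKD, 3 arrays), both at a multiplicity of infection of 5. The series describes 3 neuronal preparations, and arrays of the same replicate number were taken as pairs from 1 preparation.

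The proteasome is a barrel, the 20S core, capped by regulators. The core is built from outer alpha rings and inner beta rings, and 3 of the beta subunits cut peptide bonds. The 19S regulatory particle binds ubiquitin chains, removes them and threads the substrate into the core, and its base holds a ring of ATPases. Other caps are the PA28 activators and PA200, which open the core without ubiquitin. Interferon replaces the catalytic beta subunits by immunoproteasome counterparts and raises PA28 alpha and beta, which together favour peptides for antigen presentation. Neurons depend on the proteasome for turnover of synaptic proteins.

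The microRNA that the knockdown virus is meant to lower is shown to identify the treatment, with its seed (bases 2 to 8) in capitals. The sequence is from RefSeq at chr13:63300760-63300780 (GRCm38.p6, plus strand).
mmu-miR-27b-3p: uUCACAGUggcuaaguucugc
Target sites in proteasome transcripts were not searched here. No probe on the array is named for miR-27b, so the depth of the knockdown could not be checked in these samples.

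Promoter windows of 3 activator genes are shown because these genes rose together, as described further on. Each is RefSeq sequence of GRCm38.p6, 5′ to 3′ on the gene's strand, with 250 bases before and 50 after the start of the gene. Capitals mark motif matches. Psme1 lies at chr14:55578244-55578543 (plus strand), Psme2 at chr14:55591052-55591351 (minus strand) and Psme4 at chr11:30771525-30771824 (plus strand). RefSeq lists 2 windows for Psme2 that lie 80 bases apart, and 1 is printed.
Psme1: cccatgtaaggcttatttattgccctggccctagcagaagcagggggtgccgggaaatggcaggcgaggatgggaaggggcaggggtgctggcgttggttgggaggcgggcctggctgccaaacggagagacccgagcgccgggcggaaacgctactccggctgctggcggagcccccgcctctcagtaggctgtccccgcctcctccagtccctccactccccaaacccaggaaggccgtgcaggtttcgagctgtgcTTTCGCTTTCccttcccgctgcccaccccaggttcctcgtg
Psme2: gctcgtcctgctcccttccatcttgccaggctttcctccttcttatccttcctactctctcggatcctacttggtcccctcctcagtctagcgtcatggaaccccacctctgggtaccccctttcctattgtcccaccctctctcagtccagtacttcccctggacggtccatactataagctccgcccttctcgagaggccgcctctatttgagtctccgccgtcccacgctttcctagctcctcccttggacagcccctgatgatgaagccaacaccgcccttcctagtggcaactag
Psme4: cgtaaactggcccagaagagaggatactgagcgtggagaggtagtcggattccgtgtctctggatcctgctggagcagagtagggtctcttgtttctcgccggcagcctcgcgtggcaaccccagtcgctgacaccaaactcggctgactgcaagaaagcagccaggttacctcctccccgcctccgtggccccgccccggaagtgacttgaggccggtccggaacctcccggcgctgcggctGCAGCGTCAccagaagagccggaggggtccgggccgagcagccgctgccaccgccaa
The letters GAAA, any 2 bases and GAAA again, a core form of the element bound by interferon regulatory factors, were searched on both strands. They occur in the Psme1 window on the opposite strand, beginning 9 bases downstream of the start, in neither Psme2 window, and in 3.44% of all 32851 promoter windows. Among the 43 windows found for 40 of the 48 proteasome genes, 5 held that motif, or 11.6% (Psmb3, Psmd4, Psmd9, Psme1 and Psmg4). The letters TGACNNNGC, a core form of the antioxidant response element that NRF1 and NRF2 bind, occur in the Psme4 window on the opposite strand, beginning 7 bases upstream of the start. Of the proteasome windows 6 held them, or 14%, against 12.4% of all windows. The letters CCAAT, bound by NF-Y, occur in 14 proteasome windows (32.6%, against 37.4% of all), and TTCNNNGAA, a form of the element bound by STAT factors, in 3 (6.98%, against 8.3%). All motifs were searched on both strands, no printed window holds more than 1 match, and each match is a description of letters and not a site of binding.

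Between 17498 and 19163 probes per array were detected at a detection p under 0.05, and mean intensity ran from 669 to 788. Knockdown replicate 3 had the fewest detected probes and the lowest mean intensity. Spearman correlations across probes ran from 0.876 to 0.907 between arrays, and probes are not independent replicates. Neuronal markers were present, with 6 of 8 detected (Snap25 and Nefl were not). Of these 2 were higher and 1 lower, beside 16.6% higher and 15.3% lower over all genes. Dcx and Stmn2 rose by 0.56 and 0.30 on the log2 scale, and Rbfox3 differed by -0.42. Map2, Tubb3 and Syp differed by 0.11, 0.17 and -0.22 and did not pass. Summed intensities of the neuronal markers, in which these opposite differences are merged, were 78539 to 83823 in controls and 80473 to 85189 after knockdown. Of the 7 tested astrocyte markers 4 fell and 0 rose, beside 15.3% lower and 16.6% higher over all genes. Gfap, Aqp4, Aldoc and Slc1a2 fell, with log2 differences of -1.83, -1.29, -1.23 and -1.07. Gja1, Slc1a3 and Aldh1l1 differed by -0.44, -0.13 and -0.090 and did not pass. Summed intensities, in which Slc1a3 was the brightest marker, were 23368 to 31792 in controls and 17151 to 21455 after knockdown. Microglial markers were mostly undetected, with 10 of 12 not detected (among them Cx3cr1, Csf1r, C1qa, Ptprc and Tmem119). The other markers of microglia, Aif1 and Cd68, summed to 134 to 183 in controls and 122 to 135 after knockdown. The oligodendrocyte lineage (3 of 9 markers tested) summed to 8145 to 10854 in controls and 4703 to 7548 after knockdown, nearly all of it from Olig1, which differed by -0.63 (adjusted p = 0.0531). Vascular cells and fibroblasts (4 of 8 tested) summed to 836 to 1959 and 879 to 1547, and dividing progenitors (3 of 6 tested) to 457 to 623 and 558 to 723. No tested marker of these other 3 lists passed the threshold without the replicate block. With it, Olig1 was lower (adjusted p = 0.0123), as was Pecam1 (0.0243), while Nes (0.0185) and Col1a1 (0.0399) were higher. The block also added the astrocyte marker Gja1 to those that fell (0.0195) and ended the call of the neuronal marker Stmn2 (0.0510). With 3 arrays a group, precision is set by the array number.

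Most proteasome genes stayed close to their control level, and the genes that rose encode caps, an inhibitor and an assembly factor. Of the 41 tested genes, 5 rose (Psme1, Psme2, Psme4, Psmf1 and Psmg3), 1 fell (Psma5) and 35 did not pass, by limma with Benjamini-Hochberg adjustment over all 11280 genes at 0.05. That is 14.6% of the tested members, against 31.9% of all genes (16.6% higher and 15.3% lower). The same 6 members, and no others, had an unadjusted p under 0.05, again 14.6% against 43.7% of all genes. The median difference of the members, knockdown minus control on the log2 scale, was 0.033 beside 0.0058 for all genes. With median scaling of the arrays these medians were -0.11 and -0.078, so the sign of the members' median depends on the scaling. The members' medians in the 3 preparations were -0.063, 0.025 and 0.077. The part of the lower astrocyte markers in these differences was not tested. In bulk RNA, fewer cells of a type and less RNA per cell cannot be told apart.

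The size of the differences was small as well. A difference within 0.2 on the log2 scale, in either direction, was found for 78.0% of the tested members and for 41.2% of all genes. With median scaling these shares were 58.5% and 39.8%. Proteasome genes are brightly measured, and among the 4051 genes with a mean log2 intensity of at least 10 the share within 0.2 was 47.3%, with 36.2% past the threshold. Of the 31 members in that bright range 27 lay within 0.2, or 87.1%, and 4 passed. These bright-range shares hold for quantile normalisation and were not recomputed with median scaling. With median scaling the 27 tested genes of the constitutive 20S and 19S parts had a median difference of -0.17, in place of -0.028. Psme2 was the only tested member to differ by more than 0.5, a size reached by 23.2% of all genes. In 8 of 41 members (19.5%) the control and knockdown values did not overlap, 7 higher and 1 lower, against 48.4% of all genes (24.9% higher and 23.5% lower).

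**Figure D1:**
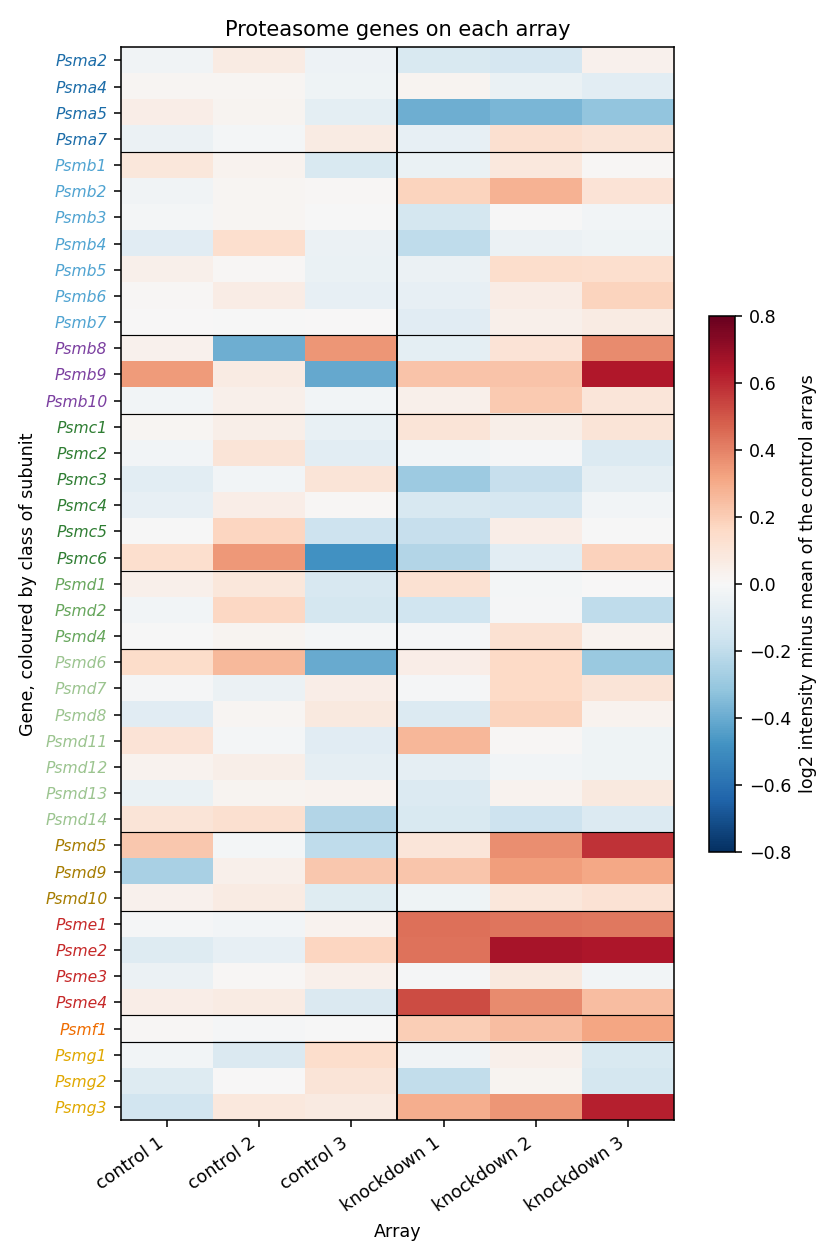
Each row is a tested proteasome gene and each column an array, and colour gives the log2 intensity minus the mean of the 3 control arrays for that gene. Rows for Psme1, Psme2, Psme4, Psmf1 and Psmg3 are higher on all 3 knockdown arrays, Psma5 is lower on all 3, and most 20S and 19S rows are near 0.

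Of the 48 members 7 did not pass the detection filter, which asks for 3 or more arrays with a detection p below 0.05. They were the alpha subunit genes Psma1, Psma3 and Psma6, the testis alpha subunit gene Psma8, the thymus beta subunit gene Psmb11, the lid gene Psmd3 and the assembly chaperone gene Psmg4. Their intensities lay between 62.2 and 181, near the floor of the arrays, and only 1 of the 2 Psmd3 probes was detected on any control array, in 1 of 3. After knockdown the other Psmd3 probe and the Psmg4 probe were each detected on 1 of 3 arrays. Psma1, Psma3, Psma6 and Psmd3 encode obligatory parts of the complex, so a dim probe there is no measure of an absent transcript, and the performance of these probes was not tested.

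The alpha ring genes, which form the gate of the core, had 1 member that fell among 4 tested. Psma5, the alpha 5 subunit gene, read 13.82, 13.78 and 13.69 as log2 intensity on control arrays 1 to 3 and 13.37, 13.40 and 13.45 on knockdown arrays 1 to 3. All knockdown values lay below all control values. The difference was -0.36 (SE 0.077, n = 3 per group, lower in 3 of 3 pairs; limma adjusted p = 0.0146), so that controls were 1.28-fold higher. With median scaling it was -0.54 (adjusted p = 0.0411). Without control replicate 1 the difference was -0.33 and the adjusted p 0.0601. The other Psma5 probe was dim, at a mean intensity of 110, and was not tested. The remaining alpha genes Psma2, Psma4 and Psma7 differed by -0.074, -0.039 and 0.056 on the log2 scale, with adjusted p of 0.547, 0.724 and 0.666.

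None of the 7 constitutive beta ring genes passed, and their differences ran from -0.094 to 0.19. Psmb5, which carries the chymotrypsin-like site, had log2 intensities of 12.00, 11.97 and 11.91 in controls and 11.92, 12.10 and 12.10 after knockdown. For Psmb6, which carries the caspase-like site, the values were 12.90, 12.94 and 12.82 in controls and 12.82, 12.94 and 13.06 after knockdown. Psmb7, which carries the trypsin-like site, read 13.23, 13.23 and 13.24 in controls and 13.14, 13.27 and 13.30 after knockdown. The groups overlapped for each of these catalytic genes. The differences were 0.077 (95% interval -0.13 to 0.28), 0.058 (-0.16 to 0.28) and 0.0056 (-0.18 to 0.19) on the log2 scale. With median scaling the direction of all 3 turned, to -0.072, -0.11 and -0.17, and that of Psmb7 turned in 6 of 17 alternatives. A p that misses the threshold does not show that the levels were alike.

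The other beta subunits shape the ring without cutting. Psmb2 read 12.94, 12.98 and 12.98 in controls and 13.15, 13.25 and 13.07 after knockdown. The groups did not overlap, but the difference of 0.19 (SE 0.079, limma adjusted p = 0.116) did not pass. It passed with a trended and robust variance model (adjusted p = 0.0259). A second probe for Psmb2 differed by 0.17. Psmb4 had log2 intensities of 14.09, 14.31 and 14.13 in controls and 13.97, 14.13 and 14.14 after knockdown, a difference of -0.094 (adjusted p = 0.499) with overlapping groups.

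Immunoproteasome subunits did not pass either. Psmb10, the counterpart of Psmb7, was bright, with log2 intensities of 11.58, 11.64 and 11.58 in controls and 11.64, 11.81 and 11.70 after knockdown. The groups overlapped narrowly, and the difference was 0.12 (95% interval -0.077 to 0.31, adjusted p = 0.318). Psmb9, the counterpart of Psmb6, was dim, at 6.63, 6.36 and 5.88 in controls and 6.52, 6.52 and 6.93 after knockdown. Its difference of 0.37 (95% interval -0.15 to 0.88, adjusted p = 0.237) came mostly from the third pair, at 1.05 against -0.12 and 0.16 in the others. Without background correction Psmb9 differed by 0.20 and Psmb8 by 0.068. Psmb8, the counterpart of Psmb5, was detected on 2 of 3 control arrays and read 6.10, 5.68 and 6.42 in controls and 5.99, 6.17 and 6.45 after knockdown. The groups overlapped, with a difference of 0.14 (95% interval -0.37 to 0.64, adjusted p = 0.66). The intervals of the dim Psmb8 and Psmb9 reach 0.64 and 0.88, so a rise of the size seen in the PA28 genes is not excluded for either.

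The 19S particle showed no gene past the threshold among the 16 tested. All 16 differences lay within 0.2 of 0 on the log2 scale, from -0.18 to 0.084, with a median of -0.035. This depends on the scaling, since with median scaling all 16 were negative, from -0.32 to -0.021 with a median of -0.15, and Psmc2, Psmc3, Psmc4 and Psmd14 were beyond -0.2. The 6 ATPase genes of the base, Psmc1 to Psmc6, had a median of -0.046. Psmc3 read 12.00, 12.06 and 12.18 in controls and 11.79, 11.90 and 12.01 after knockdown. It was lower in 3 of 3 pairs with overlapping groups, a difference of -0.18 (SE 0.094, adjusted p = 0.19). Psmc4 read 12.76, 12.88 and 12.83 in controls and 12.70, 12.69 and 12.80 after knockdown, a difference of -0.095 (adjusted p = 0.394), and its dimmer probe differed by -0.23. Psmc6 was detected on 2 arrays of each group only, and its interval of -0.59 to 0.50 is the widest of all tested members.

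The non-ATPase subunits hold the particle together and handle ubiquitin. Psmd2, a large scaffold gene of the base, read 8.40, 8.59 and 8.29 in controls and 8.27, 8.42 and 8.22 after knockdown, a difference of -0.12 (adjusted p = 0.418). Psmd4, a ubiquitin receptor gene, read 13.27, 13.30 and 13.26 in controls and 13.27, 13.40 and 13.31 after knockdown, a difference of 0.049 (adjusted p = 0.66). Both pairs of groups overlapped. In the lid, Psmd14 encodes the enzyme that removes ubiquitin chains and Psmd7 its inactive partner. Psmd14 read 11.11, 11.13 and 10.77 in controls and 10.88, 10.84 and 10.89 after knockdown, a difference of -0.13 (adjusted p = 0.427), and a second probe gave the same value. Psmd7 read 12.35, 12.31 and 12.41 in controls and 12.35, 12.52 and 12.46 after knockdown, a difference of 0.084 (adjusted p = 0.478). The remaining tested non-ATPase genes of the lid and base differed by between -0.042 and 0.079.

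**Figure D2:**
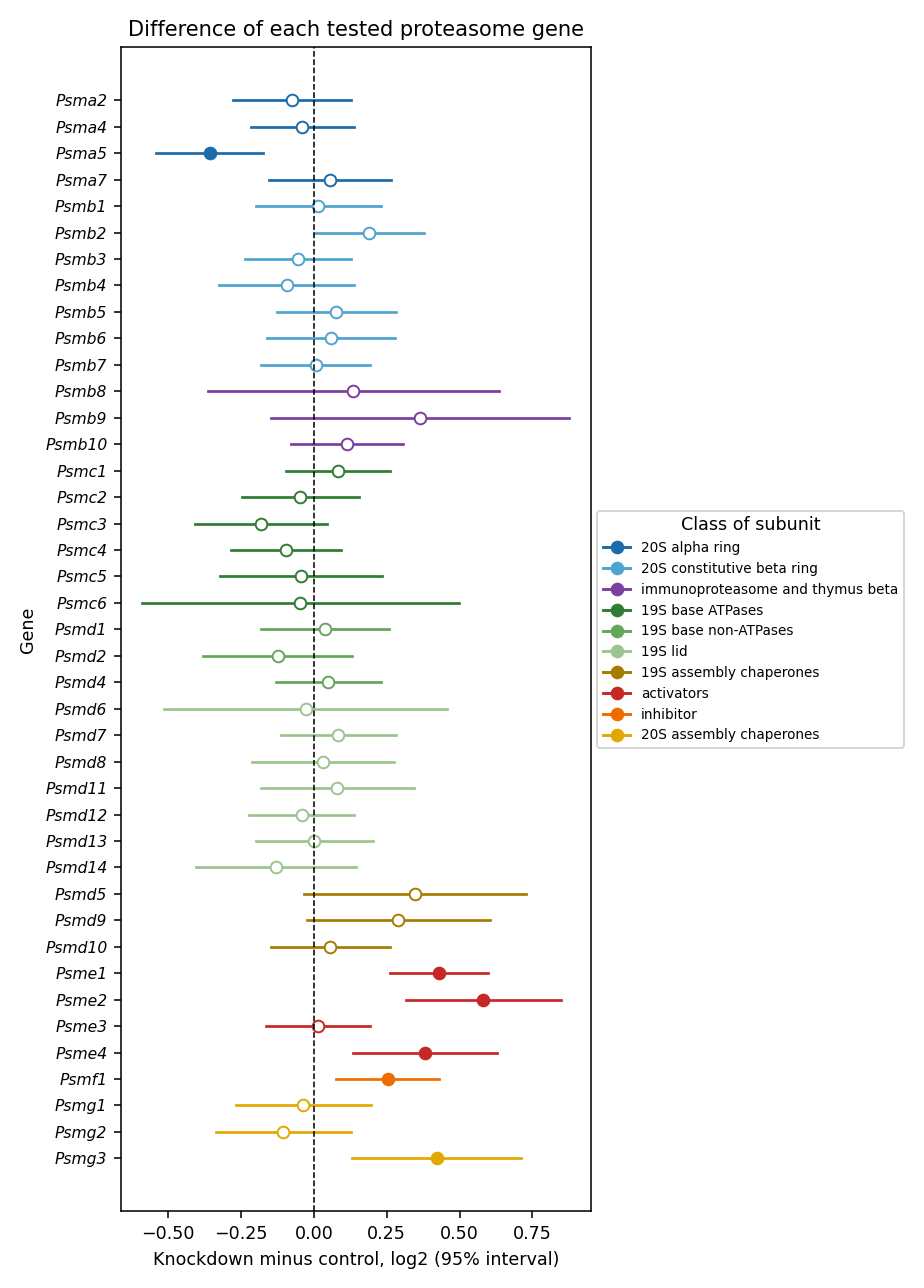
Points give the difference of each tested proteasome gene, knockdown minus control on the log2 scale, with its 95% interval from limma, coloured by class of subunit; filled points passed the threshold. Filled points sit in the activators (Psme1, Psme2 and Psme4), the inhibitor Psmf1, the chaperone Psmg3 and, below 0, the alpha subunit Psma5.

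Of the 4 activator genes 3 rose, Psme3 did not pass and none fell, beside 16.6% higher and 15.3% lower over all genes. With median scaling Psme2 alone of these passed. Psme1 and Psme2 encode the alpha and beta subunits of PA28, a ring that caps the core and is best known from interferon-treated cells. Psme1 read 11.19, 11.18 and 11.23 in controls and 11.64, 11.63 and 11.62 after knockdown. The groups were far apart for their spread, with SDs of 0.028 and 0.0093. The difference was 0.43 (SE 0.070, higher in 3 of 3 pairs; adjusted p = 0.00526), or 1.35-fold. The dimmer Psme1 probe differed by 0.28 with overlapping groups (adjusted p = 0.113 over all detected probes). With median scaling Psme1 differed by 0.29 and did not pass (adjusted p = 0.275).

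Psme2 had the largest difference of the tested members. Its log2 intensities were 8.66, 8.69 and 8.93 in controls and 9.19, 9.42 and 9.41 after knockdown, and the groups did not overlap. The difference was 0.58 (SE 0.11, higher in 3 of 3 pairs; adjusted p = 0.0096), or 1.5-fold. It passed under each of the 17 alternatives, with adjusted p from 0.0012 to 0.0497. Psme2b, a gene of like name outside the naming rule, read 8.30, 8.25 and 8.60 in controls and 8.93, 8.63 and 8.74 after knockdown. Its difference of 0.38 did not pass (adjusted p = 0.0735 over all detected probes). Whether the Psme2 and Psme2b probes read each other's transcripts was not tested, so the value of Psme2 is uncertain to that extent.

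Of the other activator genes, Psme4 passed and Psme3 did not. Psme4, which encodes the large cap PA200, read 11.38, 11.39 and 11.21 in controls and 11.85, 11.70 and 11.57 after knockdown. All knockdown values lay above all control values, with a difference of 0.38 (SE 0.10, higher in 3 of 3 pairs; adjusted p = 0.0315), or 1.30-fold. With median scaling it was 0.24 and did not pass (adjusted p = 0.435). Psme3, which encodes the nuclear PA28 gamma, read 10.36, 10.42 and 10.45 in controls and 10.40, 10.49 and 10.39 after knockdown. The groups overlapped and the difference was 0.014 (95% interval -0.17 to 0.19, adjusted p = 0.907). The difference between Psme3 and the other activators was not tested. When 1 array was left out at a time, Psme1 and Psme2 passed each time (adjusted p 0.0145 to 0.0261 and 0.0108 to 0.0399). Psme4 passed only without knockdown replicate 3, with adjusted p of 0.0279 to 0.0864 over the 6 fits.

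Psmf1, the gene of the proteasome inhibitor PI31, rose slightly. It read 11.61, 11.59 and 11.60 in controls and 11.80, 11.85 and 11.92 after knockdown, without overlap. The difference was 0.25 (SE 0.074, higher in 3 of 3 pairs; adjusted p = 0.0409), or 1.19-fold. It was 0.11 with median scaling (adjusted p = 0.712). With preparation as a replicate block the adjusted p was 0.0644, and it was 0.0643 to 0.106 without any 1 of the 6 arrays. The 3 probes of Psmf1 disagreed in size. A dim probe with log2 intensities of 5.67, 5.87 and 6.08 in controls and 6.58, 7.01 and 6.81 after knockdown differed by 0.93 (adjusted p = 0.0064 over all detected probes), and another dim probe differed by 0.13 (adjusted p = 0.675).

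**Figure D3:**
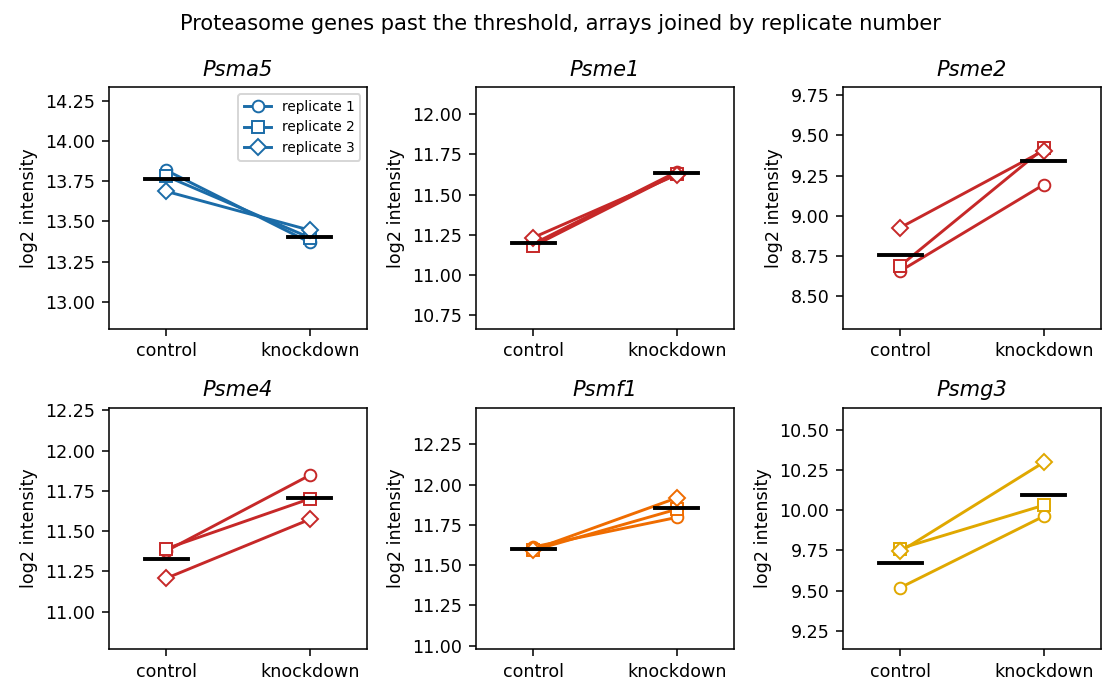
Each panel shows 1 proteasome gene past the threshold, with log2 intensity on every array (points), arrays of the same replicate number joined by lines and group means as black bars; the panels span the same range of log2 units. Lines fall in all 3 pairs for Psma5 and rise in all 3 pairs for Psme1, Psme2, Psme4, Psmf1 and Psmg3.

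Among the 20S assembly chaperones 1 of 3 tested genes rose. Psmg3, whose product helps build the alpha ring, read 9.52, 9.76 and 9.74 in controls and 9.96, 10.03 and 10.30 after knockdown, without overlap. The difference was 0.42 (SE 0.12, higher in 3 of 3 pairs; adjusted p = 0.0389), or 1.34-fold. Under median scaling the difference was 0.33 (adjusted p = 0.186). It passed without knockdown replicate 1 (adjusted p = 0.0498) but not without any other single array, where adjusted p reached 0.119 without control replicate 1. Psmg1 and Psmg2, partners in the dimer that starts alpha ring assembly, differed by -0.036 and -0.10 and did not pass (adjusted p = 0.81 and 0.455). A dimmer Psmg2 probe differed by -0.24, lower in 3 of 3 pairs without overlap (limma adjusted p = 0.0796 over all detected probes). Another Psmg2 probe differed by -0.048. Among the 19S chaperones none of 3 passed. Psmd9 read 7.80, 8.09 and 8.27 in controls and 8.28, 8.39 and 8.37 after knockdown, a difference of 0.29 (adjusted p = 0.138) without overlap. Psmd5 read 8.81, 8.58 and 8.39 in controls and 8.69, 8.97 and 9.17 after knockdown, a difference of 0.35 (adjusted p = 0.143) with overlap. Psmd10, also known as gankyrin, differed by 0.057.

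By role, 0 of 27 tested genes of the constitutive 20S and 19S parts rose and 1 fell, while 5 of the 14 tested genes for alternative subunits, caps, the inhibitor and chaperones rose and 0 fell, beside 16.6% higher and 15.3% lower over all genes. The median differences of these sets were -0.028 and 0.27 on the log2 scale (-0.17 and 0.18 with median scaling). In the 3 preparations the median of the first set was -0.085, -0.068 and 0.050, and that of the second 0.049, 0.26 and 0.27. Pooling the classes into these sets was not part of the plan, and the difference between the sets was not tested. The count of rises was 2 or 3 whichever single array was left out, and 1 with median scaling. Leaving out 1 array also lowered the number of all genes past the threshold, from 3598 to between 2290 and 3179.

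**Figure D4:**
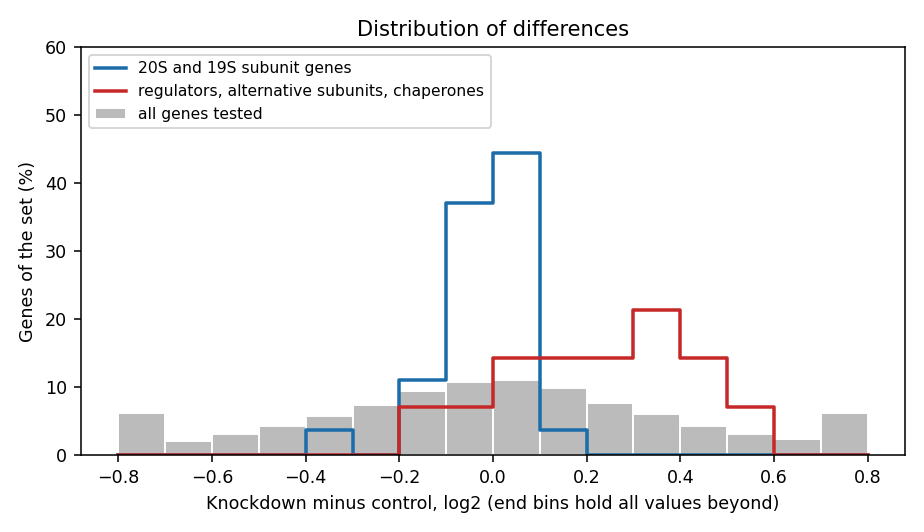
Bars give the percentage of all 11280 tested genes in each bin of the difference, knockdown minus control on the log2 scale, and lines the same for the 27 tested 20S and 19S subunit genes and for the other 14 tested members. The 20S and 19S line is narrow around 0, while the line of the other members reaches from -0.104 to 0.58.

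Of the 41 tested members 19 had more than 1 detected probe. In 15 of these the probes had the same sign, and in Psmb7, Psmd10, Psmd11 and Psmd12 the signs were mixed. In all 67 probes of members passed the detection filter and 6 passed the threshold, against 27.4% of all detected probes. For Psmf1 the dim probe is among these 6, while the brightest probe, which stands for the gene, missed the threshold over all detected probes (adjusted p = 0.0578). Apart from Psmf1, the differences of the probes of 1 gene lay at most 0.23 apart on the log2 scale.

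Genes that work with the proteasome are given next, by lists drawn from general knowledge. Of 8 tested partners of the particle outside the naming rule, 2 rose and 0 fell, with a median of -0.017, where 16.6% of all genes were higher and 15.3% lower. Ube3c, a ubiquitin ligase gene whose product acts on the proteasome, read 11.50, 11.38 and 11.63 in controls and 11.98, 11.95 and 11.87 after knockdown, a difference of 0.43 (adjusted p = 0.0147). Zfand2a, a gene for a zinc finger protein that binds the particle, read 12.46, 12.58 and 12.44 in controls and 12.91, 13.02 and 12.77 after knockdown, a difference of 0.40 (adjusted p = 0.0207). The groups did not overlap for either gene. Pomp, the maturation factor of the core, differed by 0.10, and the deubiquitinase genes Usp14 and Uchl5 by -0.16 and -0.17, none of them past the threshold. Without control replicate 1 Ube3c had an adjusted p of 0.0533, and Zfand2a passed in 2 of the 6 fits that leave out 1 array. Neither passed with median scaling (adjusted p = 0.312 and 0.404).

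Shuttle factors and the segregase adaptors, which bring substrates to the particle, had 3 of 7 tested genes higher and 0 lower, against 16.6% and 15.3% of all genes, with a median of 0.18 (0.026 with median scaling). Faf1 read 12.06, 12.10 and 12.08 in controls and 12.56, 12.50 and 12.52 after knockdown, a difference of 0.45 (adjusted p = 0.00479). Ubqln4, a ubiquilin gene, read 9.72, 9.91 and 9.96 in controls and 10.37, 10.37 and 10.26 after knockdown, a difference of 0.47 (adjusted p = 0.011). Nploc4, whose product is a cofactor of the segregase VCP, read 8.85, 9.04 and 9.07 in controls and 9.42, 9.34 and 9.32 after knockdown, a difference of 0.37 (adjusted p = 0.023). Their groups did not overlap, and none of the 3 passed with median scaling (adjusted p = 0.257, 0.174 and 0.262). Nploc4 passed in 2 of the 6 fits that leave out 1 array. Of the ubiquitin and E1 genes, 5 of 6 had no named probe and 1 was not detected, so none was tested.

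Of 8 tested genes for factors linked to transcription of proteasome genes, 2 were higher and 1 lower, a share near the 31.9% of all genes. With the replicate block Bach1 passed too (0.59, adjusted p = 0.00882). Nfe2l1, which encodes NRF1, the activator of proteasome genes after proteasome inhibition, differed by -0.13 and did not pass (adjusted p = 0.253). Its relative Nfe2l3, which encodes NRF3, was dim and read 6.04, 5.85 and 5.85 in controls and 7.63, 8.01 and 7.40 after knockdown. All knockdown values lay above the controls, with a difference of 1.77 (SE 0.16, adjusted p = 0.000793), or 1.06 without background correction. Of its 2 detected probes only the brighter is given. Nfya and Nfyb encode subunits of the CCAAT-binding factor NF-Y. Nfya read 6.20, 6.48 and 6.22 in controls and 6.75, 6.83 and 7.38 after knockdown, a difference of 0.69 (adjusted p = 0.03), or 0.40 without background correction. With no filter on dim probes Nfya did not pass (adjusted p = 0.0553). Under a stricter filter, a detection p under 0.01 on all arrays, neither Nfe2l3 nor Nfya was tested. Nfyb read 9.95, 9.89 and 9.74 in controls and 9.41, 9.47 and 9.51 after knockdown, a difference of -0.40 (adjusted p = 0.0157), which did not pass with median scaling (-0.48, adjusted p = 0.066). Nfya and Nfyb each kept an adjusted p under the threshold in 3 of the 6 fits that leave out 1 array.

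Genes of antigen presentation and interferon response, the setting of the immunoproteasome, had 2 of 7 tested members higher and 0 lower, a share called near the 31.9% of all genes. B2m, the light chain gene of major histocompatibility complex class I, read 11.79, 11.82 and 11.83 in controls and 12.25, 12.34 and 12.33 after knockdown, a difference of 0.49 (adjusted p = 0.00371). H2-D1, a class I heavy chain gene, read 10.19, 10.51 and 10.45 in controls and 10.84, 11.14 and 11.07 after knockdown, a difference of 0.64 (SE 0.12, adjusted p = 0.0105). Neither pair of groups overlapped. With median scaling these adjusted p were 0.189 and 0.052. The interferon-linked factor genes Irf1 and Irf9 differed by 0.14 and 0.12 and did not pass (adjusted p = 0.593 and 0.676). Nor did H2-K1 at 0.30 (adjusted p = 0.235), the peptide transporter gene Tap2 at -0.30 (0.564) or Tapbp, the gene of tapasin, at 0.044 (0.904). The part of cell composition in the values of B2m, H2-D1, Psme1 and Psme2 was not tested. The microglial markers Cx3cr1, Csf1r, C1qa, Ptprc and Tmem119 were not detected. Cd68 fell by 1.01 on the log2 scale (adjusted p = 0.00404). Aif1 differed by 0.43, higher in 3 of 3 pairs without overlap but not past the threshold (adjusted p = 0.0753). Both were dim, Cd68 being detected on 2 of 3 knockdown arrays and Aif1 on 2 of 3 control arrays.

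**Figure D5:**
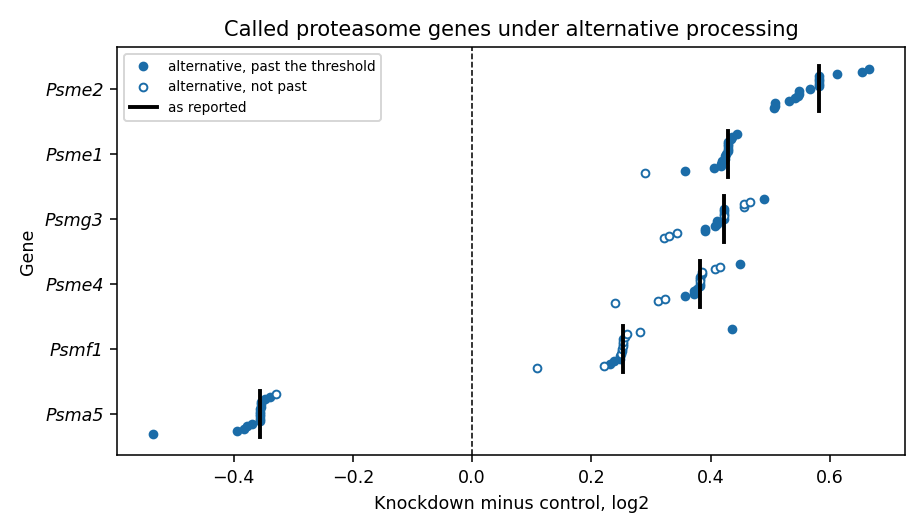
Points give the difference of each proteasome gene past the threshold, knockdown minus control on the log2 scale, under 17 alternative settings, filled where the gene passed; black bars mark the reported value. All points of Psma5 lie below 0 and all points of the other genes above 0, and Psme2 is filled in each setting.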

How the data were processed

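Total RNA (500 ng per sample) was labelled as biotin cRNA and read on an Illumina bead array, per the labels' protocols. Per the file headers, the deposited non-normalised table pairs each array's probe intensity with a detection p-value. The sources used here do not give scanner software, background setting or genome build. Quantile normalisation of those intensities came within 0.00462 (log2) of the authors' other deposited intensity table, which was used only as an alternative.

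Background was corrected with normexp from the detection p-values (offset 16) and arrays were quantile normalised, in limma 3.58.1 under R 4.3.3. A probe was kept when 3 or more arrays gave it a detection p below 0.05, which left 18627. Platform symbols were updated through RefSeq (GRCm38.p6, names only), which changed no member's symbol; 35784 probes had 1 symbol and 9497 none. The brightest detected probe stood for each gene. The symbols Psmc3ip, Psme2b and Psme3ip1 were left out as not ending in digits. Differences are knockdown minus control, tested by limma (lmFit, eBayes) over all genes with Benjamini-Hochberg adjustment at 0.05, with no block. The fit was tested on simulated data.

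Members and lists were chosen with earlier results of these data known. Named are all members past the threshold, the catalytic beta subunits with their counterparts, the 2 members with the smallest p in classes with none, and up to 4 per further list; other named genes were chosen after their values were seen. Replicate numbers were taken as pairs, since the series describes 3 preparations and same-numbered arrays deviated together (correlations of 0.148, 0.253 and 0.250 across genes). Replicates are separate samples by label, with preparations as the stated source.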

Additional observations from a re-analysis of the deposited data

How the results depend on the processing

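Of 846 values recomputed under 17 alternatives, 764 kept their side of the threshold or stayed close, 50 lost the threshold, 1 gained it and 31 moved. None of the called differences changed sign. Psmb5, Psmb6, Psmb7, Psmb8, Psmb10, Psmd4 and Psmd7, none of them called, did so under 1 to 6 alternatives. Those changes of sign are counted within the 764. With median scaling 2288 genes passed in place of 3598, 2 members passed in place of 6, 1 of them higher in place of 5, and the members' median was -0.11; 40.2% of all calls were then higher, against 52.1%. With no filter on dim probes 3 members passed and 2 were higher, a setting that also tests 21946 genes in place of 11280. Leaving out 1 array gave 2290 to 3179 genes past the threshold, lowest without control replicate 1, 2 to 4 members past it, 2 to 3 of them higher and 0 to 1 lower, and a members' median of -0.012 to 0.055. With the replicate block 5 members passed, Psmf1 being lost, and no other call of a member changed. Mean over detected probes moved Psmf1 to 0.44. The cause of the other changes was not tested. Signal near background limits Psmb8, Psmb9 and Psmc6 among the members, and Nfe2l3, Nfya, Aif1 and Cd68 among the further genes named.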
